A study of Mus musculus with 8 samples.

Results

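The genes described here are 36 mouse genes known from trophoblast and placenta. They were listed by symbol, as lineage regulators, as products of giant cells and spongiotrophoblast, and as labyrinth or syncytial genes, and the list was drawn up with earlier results of these arrays known. Of the 36, 30 had at least 1 probe set with a single gene symbol, out of 18193 genes so measured on the array. Gcm1, Prl3d1, Prl3b1, Bin2 and Syna had no such probe set named here, and the 2 probe sets of Prl2c2 also carry other genes' symbols. A gene is given by the brightest of its probe sets, and 4 of the 36 genes (Ceacam10, Bin2, Rassf6 and 1600025M17Rik) were put in no compartment.

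Expression was measured on 8 Affymetrix arrays of total RNA from CCE cells, an embryonic stem (ES) cell line of 129/Sv mice that is kept undifferentiated by leukemia inhibitory factor. Per the labels, CCE cells received a lentivirus with a mouse Bmi1 cDNA, or the empty vector, and were sorted for eGFP. The sources used here do not say which promoter drives it. There were 2 arrays each of ES cells labelled Bmi1, of embryoid bodies labelled Bmi1 and of embryoid bodies with the empty vector. The embryoid bodies, aggregates in which ES cells differentiate, were harvested at day 10. The control ES cells were 1 array titled untreated and 1 array with the empty vector. The growth text of the untreated array also describes the infection, but its title was followed here. Nothing in the labels says that 2 arrays of a group came from separate cultures, so a p-value reflects only how far such arrays lie apart, possibly for technical reasons, and 2 arrays a group give low precision. An exact permutation test of 2 arrays against 2 cannot give a p below 0.333, two-sided.

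Trophoblast is the first lineage set aside in the mouse embryo and builds most of the placenta. Its stem cells are held by factors such as Elf5 and Tfap2c, and they give rise to giant cells that invade the uterus, to spongiotrophoblast that secretes hormones of the prolactin family, and to the labyrinth, whose fused syncytial layers exchange nutrients with maternal blood. Many genes of giant cells and spongiotrophoblast lie in clusters of near-copies, so probes for the prolactin-like (Prl), pregnancy-specific (Psg) and placental cathepsin (Cts) genes may read more than 1 family member. Mouse ES cells rarely enter this lineage on their own.

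Facts of the whole series touch every value below. The 2 Bmi1 probe sets read lower on the arrays labelled Bmi1 than on their controls, by a log2 difference of -1.51 and -1.59 in embryoid bodies and of -1.59 and -1.58 in ES cells. Where they lie relative to the transduced cDNA was not examined here, so samples are called "labelled Bmi1" and directions are those of the arrays so labelled. The arrays formed 3 sets of nearly equal value distributions, of which the first joins both embryoid body arrays numbered 1, the second both numbered 2, and the last all ES cells. Since either embryoid body set has a single array of each label, differences are given within each set, and the set was also fitted as a block. Stage and set cannot be told apart. All 9 ES cell markers examined (Pou5f1, Nanog and others) were called lower in vector embryoid bodies than in control ES cells. A gene is said to be called where limma's p, adjusted by Benjamini-Hochberg over 12982 genes, is under 0.05. In "SE over 2 and 2 arrays" the counts are of the arrays compared. The spread behind it is limma's, pooled over all 8 arrays and drawn towards that of other genes. Over the members, the 2 arrays of a group differed by a root mean square of 1.13 (labelled Bmi1) and 1.29 (vector) in embryoid bodies. In ES cells it was 0.30 (labelled Bmi1) and 0.32 (control). An SE can thus understate the spread of embryoid bodies and overstate that of ES cells. Genes were tested if above the array's median on at least 2 arrays, which 22 of the 30 measured members were. The 8 left out as dim were Elf5, Tpbpa, Tpbpb, Ctsm, Ctsr, Prl8a9, Psg17 and Ceacam10.

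**Figure D1:**
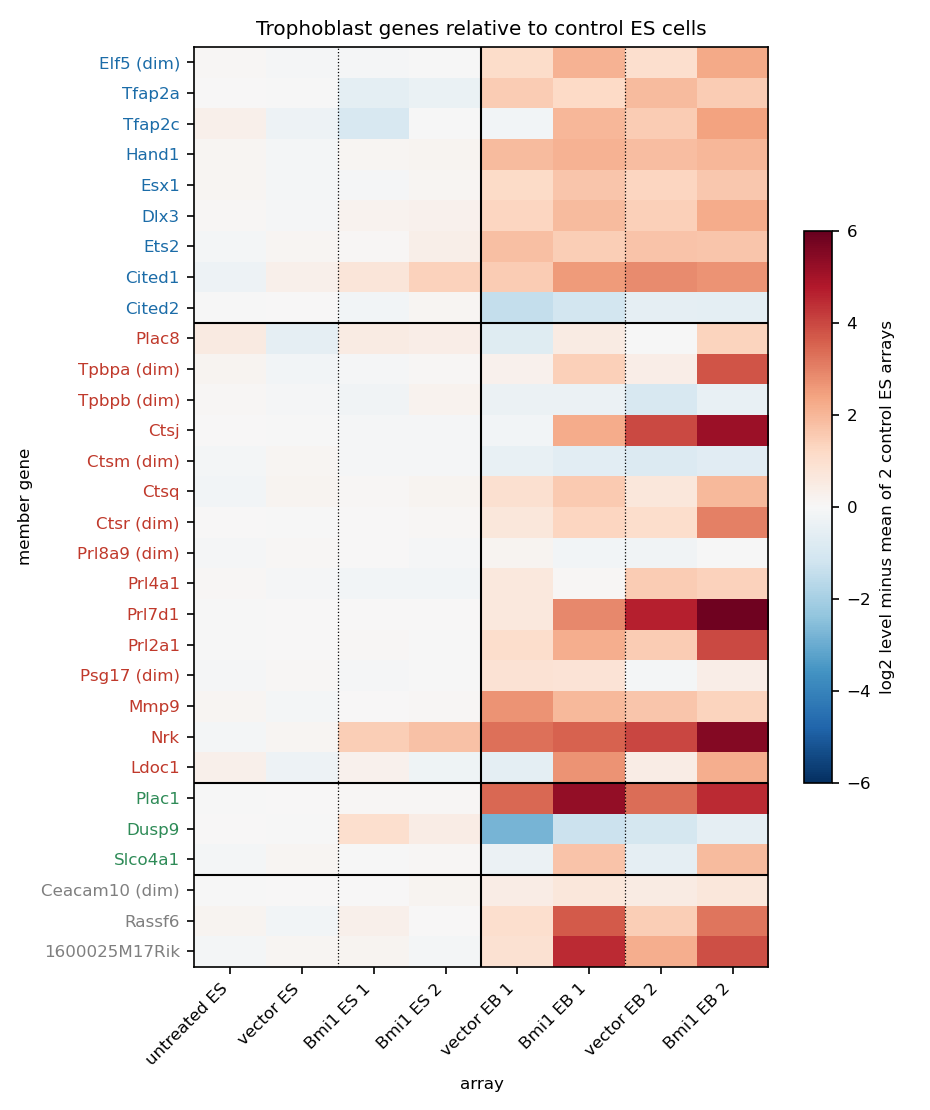
Log2 level of the 30 measured members (rows, coloured and divided by role; "dim" marks the 8 not tested) on the 8 arrays (columns), minus the mean of the 2 control ES cell arrays, on a colour scale from -6 to 6. "Bmi1" stands for arrays labelled Bmi1 and EB for embryoid bodies. Ctsj and Prl7d1 stand far above the ES cell level on both replicate 2 embryoid body arrays, whereas Slco4a1, Rassf6, Ldoc1 and 1600025M17Rik are highest on the 2 embryoid body arrays labelled Bmi1.

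Embryoid bodies labelled Bmi1 read higher than vector embryoid bodies for most of these genes after 10 days. The difference was above 0 for 24 of 30 members and in both sets for 21, where 26% of all 18193 genes were higher in both sets. The median log2 difference over the 30 was 0.90, against -0.02 over all genes, and it was 0.64 within replicate 1 and 0.84 within replicate 2 (over all genes -0.04 and -0.01). On 16 members both arrays labelled Bmi1 lay above both vector arrays, as they did for 9.36% of all genes, and on 1 member (Ets2) both lay below, as for 12.3%. Limma called 2 members, both higher, where it called 0.139% of tested genes in either direction and 0.131% higher. With the set as a block it called 9, all higher, against 2.09% and 1.35%. With the replicate number as a block over the 6 numbered arrays of both stages it called 2, and 42 of all tested genes. The list was made with such results known and tested members passed a filter on level, so these shares are a description and not a test of the list. In whole embryoid bodies, more cells of a type and more RNA per cell cannot be told apart.

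The 2 called members were Slco4a1 and Rassf6. Rassf6 was above the array median on the 2 embryoid body arrays labelled Bmi1, 1 vector embryoid body array and 0 ES cell arrays. It thus passed the filter on dim genes only with arrays labelled Bmi1, where it is high, so its call supports nothing about the list. Slco4a1, an organic anion transporter found in human syncytiotrophoblast, read 10.07 and 10.26 log2 units in replicates 1 and 2 of embryoid bodies labelled Bmi1. It read 8.05 and 7.87 in the vector embryoid bodies, so the groups lay far apart and each group was tight. The log2 difference was 2.21 ± 0.18 (SE over 2 and 2 arrays; limma adjusted p = 0.0199). It was 2.02 and 2.40 in the 2 sets, and 1.14 with the gene's other probe set. Rassf6, of the family of Ras association domain proteins, read 8.10 and 7.63 in embryoid bodies labelled Bmi1 against 5.45 and 5.92. That is a log2 difference of 2.17 ± 0.26 (SE over 2 and 2 arrays; limma adjusted p = 0.047), or 2.64 and 1.71 within the sets. The Rassf6 call was lost after quantile normalization, median centring or a robust prior with intensity trend (limma adjusted p = 0.0656, 0.0528 and 0.0562). Both calls were lost without replicate 1 or 2 of the embryoid bodies labelled Bmi1, without any 1 of the 4 ES cell arrays and with embryoid body arrays alone, where limma called 0 of all genes. The differences themselves stayed between 1.94 and 2.41 for Rassf6 and between 2.11 and 2.31 for Slco4a1 without 1 array. Without vector replicate 1 the call of Slco4a1 remained and that of Rassf6 was lost, and without vector replicate 2, where limma called 218 of all genes, 4 members were called.

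Among lineage regulators, 7 of 9 measured members read higher in embryoid bodies labelled Bmi1. The median difference over the 9 was 0.43 on the log2 scale (set medians 0.52 and 0.12). With the block 1 of the 8 tested was called, as higher, where 1.35% of all tested genes were called higher. Dlx3, a homeobox factor needed for the labyrinth, read 7.17 and 7.48 in embryoid bodies labelled Bmi1 and 6.54 and 6.67 in the vector group. Its 4 values did not overlap between the groups, the log2 difference was 0.72 ± 0.18 (SE over 2 and 2 arrays; limma adjusted p = 0.313, and 0.0375 with the block), and its dimmer probe set gave 0.16. Tfap2c, an AP-2 factor of trophoblast stem cells, read 10.50 and 10.94 against 8.37 and 10.07. The groups did not overlap, but vector replicate 1 lay far below the other 3 arrays and the difference shrank from 2.13 in replicate 1 to 0.88 in replicate 2 (1.51 ± 0.57, SE over 2 and 2 arrays; limma adjusted p = 0.614, and 0.114 with the block). Its other 2 probe sets gave 0.95 and 0.88. Elf5, an ETS factor that guards trophoblast stem cell identity, was dim and not tested. It read 5.77 and 5.96 in embryoid bodies labelled Bmi1, 4.82 and 4.69 in vector embryoid bodies and 3.65 to 3.75 in ES cells, and its other probe set differed by only 0.05 between the embryoid body groups.

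The other regulators differed less. Esx1, an X-linked homeobox gene of the labyrinth, read 7.65 and 7.59 against 7.13 and 7.25, a log2 difference of 0.43 ± 0.17 (SE over 2 and 2 arrays) that was not called with the block (limma adjusted p = 0.151). Hand1, which drives giant cell differentiation and is also a gene of the heart, read 7.25 to 7.47 on all 4 embryoid body arrays. Cited1 and Cited2, transcriptional co-regulators of placental growth, had opposite signs in the 2 sets, at 1.03 and -0.14 for Cited1 and at 0.32 and -0.02 for Cited2. Tfap2a, which is also a gene of neural crest and surface ectoderm, was at -0.35, and its 3 probe sets were all below 0. Ets2, needed for extraembryonic ectoderm, was at -0.19, but its other 2 probe sets were at 0.18 and 0.20.

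The products of giant cells and spongiotrophoblast gave the largest spread. Of 15 measured members, 11 read higher in embryoid bodies labelled Bmi1, and their median difference was 0.94 on the log2 scale (set medians 0.60 and 1.17). With the block 4 of the 9 tested were called, all higher, where 1.35% of all tested genes were called higher. Without it 0 were called, where 0.131% of all tested genes were called higher. The members of this role fell into more than 1 pattern over the arrays.

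Ctsj, a placental cathepsin, and Prl7d1, also known as proliferin-related protein, followed the set first and the label second. Ctsj read 3.25 in vector replicate 1 and 7.38 in vector replicate 2, and 5.65 and 8.55 in replicates 1 and 2 labelled Bmi1. Prl7d1 read 3.55 and 7.59 in the vector and 5.80 and 8.74 in the embryoid bodies labelled Bmi1. For both genes the vector array of replicate 2 lay above the array labelled Bmi1 of replicate 1, so the groups overlap, while within each set the array labelled Bmi1 was the higher one. Within the sets the log2 differences were 2.40 and 1.17 for Ctsj and 2.25 and 1.15 for Prl7d1. Without the block their errors were large, at 1.79 ± 1.34 and 1.70 ± 1.33 (SE over 2 and 2 arrays; limma adjusted p = 0.89 and 0.902). With the block the SE fell to 0.26 and 0.24 and both were called (limma adjusted p = 0.0315 and 0.0281). Each gene was above the array median on 1 embryoid body array labelled Bmi1 and 1 vector embryoid body array only, both of replicate 2. Both genes thus passed the filter on dim genes only with an array labelled Bmi1, so their calls support nothing about the list. Without vector replicate 1 and without a block the differences turned to -0.28 and -0.32, whereas leaving out vector replicate 2 gave 3.86 and 3.72.

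The gap between the sets was itself an extreme of the array. Replicate 2 minus replicate 1, averaged over the vector and the labelled Bmi1 arrays, was 3.52 for Ctsj and 3.50 for Prl7d1, which rank 1 and 2 among all 18193 genes. The median of the absolute gap was 0.37 over all genes and 0.85 over the 15 members of this role. Prl7b1, another prolactin-like gene that is not on the list, had rank 10 at 2.50, and Lin28a and Otx2, genes of early, undifferentiated cells, had ranks 5 and 6 at 2.91 and 2.73. The mean level of the 9 ES cell markers also followed the set, at 8.53 and 10.54 log2 units in vector replicates 1 and 2 and at 8.76 and 10.03 in the arrays labelled Bmi1. Its part in the gap was not tested.

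A second pattern was a peak on replicate 2 labelled Bmi1 with the larger difference in the replicate 2 arrays. The peak alone was not particular to it, since Ctsj and Prl7d1 were also highest on that array. Nor were both traits together, which Ctsq (0.60 and 1.27 in the sets) and Plac8 (1.21 and 1.35) of this role also had. Among members of other roles, Elf5 (0.95 and 1.27), Dlx3 (0.63 and 0.81) and Slco4a1 (2.02 and 2.40) had them too. Tpbpa, the classic spongiotrophoblast marker, read 5.56 and 7.88 in embryoid bodies labelled Bmi1, 4.39 and 4.53 in vector embryoid bodies and 3.95 to 4.29 in ES cells. It was above the array median on 1 array only and so was not tested. Another of its probe sets gave 6.25 and 8.27 against 4.35 and 4.56, and the last was dim throughout, with a difference of 0.12. Prl2a1, a prolactin-like hormone gene, read 6.60 and 8.40 against 5.49 and 5.97, a log2 difference of 1.76 ± 0.52 (SE over 2 and 2 arrays; limma adjusted p = 0.42, and 0.0351 with the block). Without a block it was 0.86 when replicate 2 labelled Bmi1 was left out and 2.66 when replicate 1 was. Prl2a1 was above the array median on the 2 embryoid body arrays labelled Bmi1, 1 vector embryoid body array and 0 ES cell arrays. It passed the filter on dim genes only with arrays labelled Bmi1, so its call supports nothing about the list. Ctsr, another cathepsin of the same cluster, was dim and read 4.83 and 6.53 against 4.19 and 4.56. Nrk, a kinase gene that restrains spongiotrophoblast growth, read 8.96 and 10.94 against 8.76 and 9.43, with differences of 0.21 and 1.51 in the sets. In each of Tpbpa, Prl2a1, Ctsr and Nrk the difference was larger in the replicate 2 arrays, the reverse of Ctsj and Prl7d1.

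Ldoc1, a retrotransposon-derived X-linked gene that acts in the endocrine lineages of the placenta, showed yet another pattern. It read 8.73 and 8.24 in embryoid bodies labelled Bmi1 and 5.46 and 6.48 in vector embryoid bodies. The vector values lay near its ES cell range of 5.77 to 6.33, replicate 1 below it and replicate 2 above it. The log2 difference was 2.51 ± 0.39 (SE over 2 and 2 arrays; limma adjusted p = 0.0994, and 0.0322 with the block), at 3.27 and 1.76 in the sets. Without vector replicate 2 and without a block it was 3.02 and was called (limma adjusted p = 0.0147).

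Further members of this role did not pass. Plac8, also a gene of leukocytes, read 8.51 and 9.38 against 7.30 and 8.02, a log2 difference of 1.28 that was near equal in the sets, at 1.21 and 1.35 (limma adjusted p = 0.534, and 0.0896 with the block). Ctsq, a cathepsin of sinusoidal giant cells, was at 0.94 ± 0.21 (SE over 2 and 2 arrays; limma adjusted p = 0.261, and 0.0623 with the block), and it passed the filter on dim genes only through the 2 embryoid body arrays labelled Bmi1. Prl4a1 was at -0.36, with 4.86 and 6.19 against 5.45 and 6.32. Ctsm, Prl8a9, Tpbpb and Psg17 were dim on all 8 arrays, and none differed by more than 0.27 between the means of the embryoid body groups.

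Mmp9, a matrix protease of giant cells and of macrophages, read 7.23 and 6.60 in embryoid bodies labelled Bmi1 and 8.01 and 6.94 with the vector, which differ by -0.56 on the log2 scale (limma adjusted p = 0.867, and 0.114 with the block). The vector replicate 1 array was the highest. The mean level of 12 macrophage and leukocyte markers was also highest there, at 8.62 against 6.70 in vector replicate 2 and 7.63 and 7.43 in the arrays labelled Bmi1, and none of the 12 was called in this comparison with or without the block. Their part in the values of Mmp9 and Plac8 was not tested.

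The labyrinth or syncytial genes were Plac1 and Dusp9 beside Slco4a1, and all 3 read higher in embryoid bodies labelled Bmi1, with a median log2 difference of 1.49. Plac1, an X-linked gene needed for placental growth, read 10.07 and 9.26 in embryoid bodies labelled Bmi1, 8.24 and 8.12 in vector embryoid bodies and 4.76 to 4.86 in ES cells. The vector arrays were already well above the ES cell arrays, and the arrays labelled Bmi1 were above the vector arrays. The log2 difference was 1.49 ± 0.26 (SE over 2 and 2 arrays; limma adjusted p = 0.145, and 0.0174 with the block), at 1.83 and 1.14 in the sets. Dusp9, an X-linked phosphatase that dampens MAP kinases in labyrinth and in ES cells, read 8.84 and 9.58 against 7.35 and 9.04, with differences of 1.49 and 0.53 (limma adjusted p = 0.783, and 0.0981 with the block). Of the genes put in no compartment, 1600025M17Rik, an X-linked gene, read 7.96 and 7.36 in embryoid bodies labelled Bmi1, 4.41 and 5.67 in vector embryoid bodies and 3.38 to 3.64 in ES cells. Its log2 difference was the largest of the members, 2.62 ± 0.41 (SE over 2 and 2 arrays; limma adjusted p = 0.101, and 0.032 with the block), at 3.55 and 1.69 in the sets. It was 3.25 and called without vector replicate 2 (limma adjusted p = 0.0067). The gene passed the filter on dim genes only through the 2 embryoid body arrays labelled Bmi1, where it is high, so its call supports nothing about the list. Ceacam10 was dim and differed by 0.23.

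**Figure D2:**
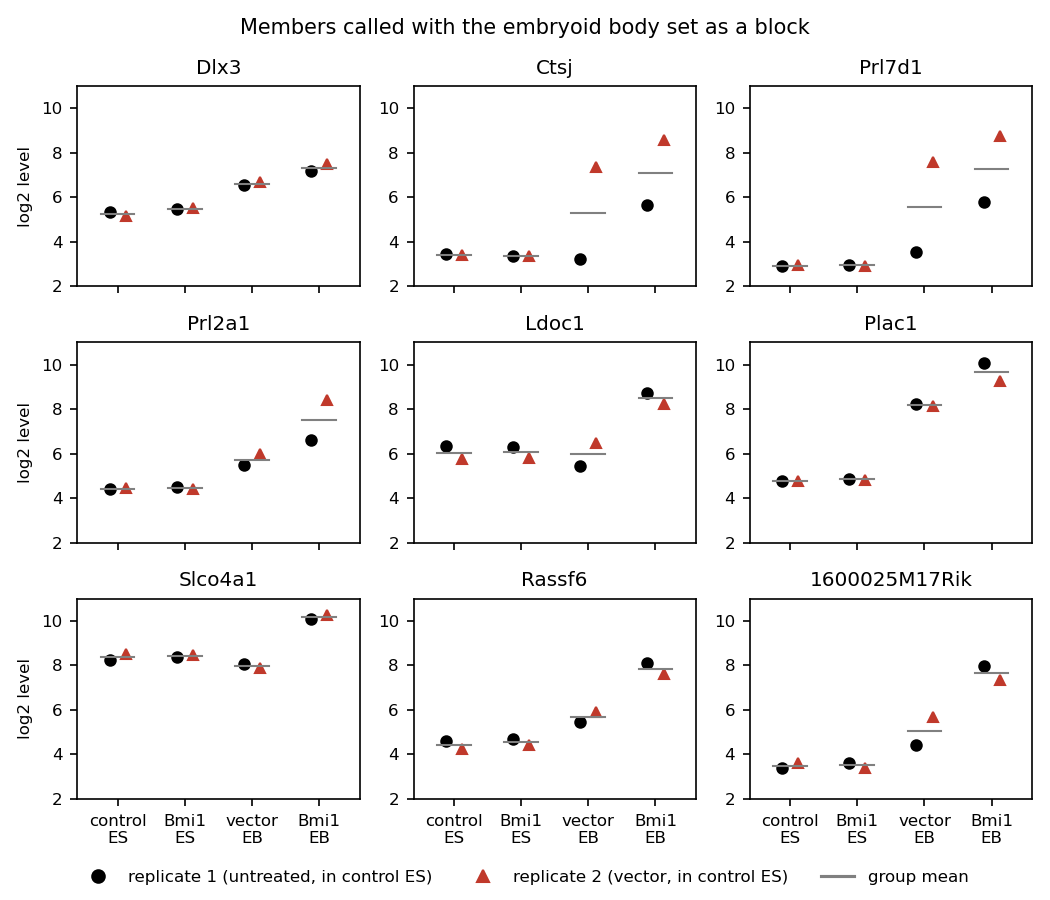
Log2 level (vertical axis, same range in each panel) of the 9 members called once the set is a block, by group, with 1 point for each array and a line at the mean of 2 arrays. Slco4a1, Plac1, Dlx3, Rassf6, Ldoc1 and 1600025M17Rik have both arrays labelled Bmi1 above both vector arrays, and so has Prl2a1, whereas Ctsj and Prl7d1 differ more between replicate 1 and replicate 2 than between the labels.

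**Figure D3:**
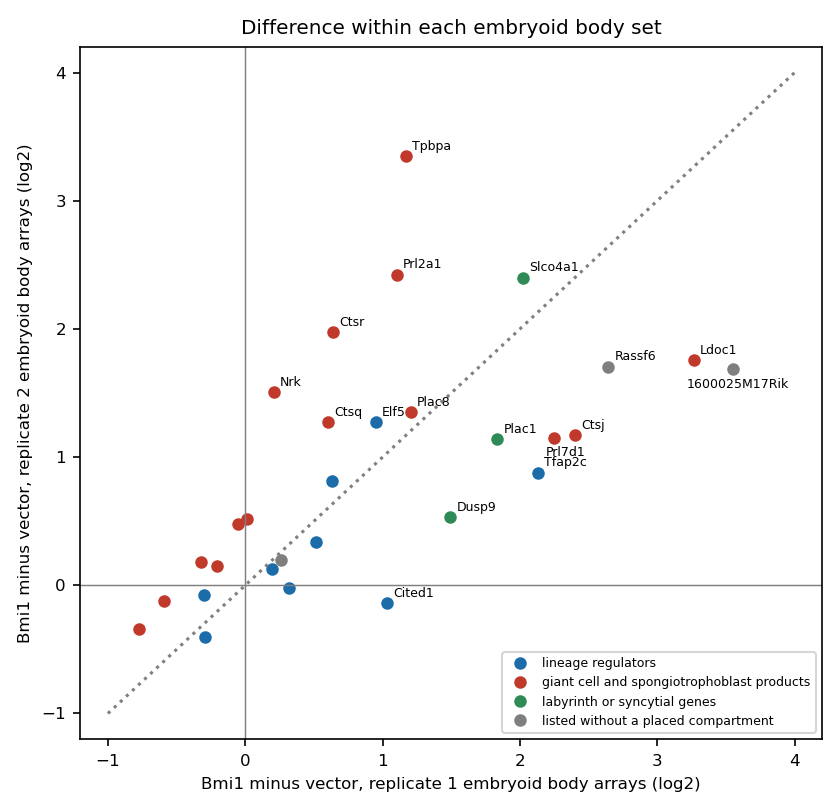
Log2 difference of labelled Bmi1 minus vector in the replicate 2 embryoid body arrays (vertical) against that in the replicate 1 arrays (horizontal), 1 point for each of 30 members, coloured by role, with a dotted line where both are equal. There are 21 members above 0 in both; Tpbpa, Prl2a1, Ctsr and Nrk lie above the line and Ldoc1, 1600025M17Rik, Rassf6, Ctsj and Prl7d1 below it.

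The sequences before the gene starts are shown for the pair that followed the set and for 3 others called higher with the block. These 3 did not move together over the stages. From control ES cells to vector embryoid bodies Plac1 was at 3.41, Slco4a1 at -0.42 and Ldoc1 at -0.08. They are the 250 bases before the start of transcription given by RefSeq (GRCm38.p6), 5′ to 3′ on the gene's strand, and for Slco4a1 and Plac1 they belong to 1 of 2 listed starts. Of the 9 genes called with the block, 8 had such a sequence and Dlx3 had none. Capitals mark matches on either strand to motifs of trophoblast factors, namely the TFAP2 motif GCCNNNGGC, the GATA motif AGATAA, the ETS motif AGGAAG, the TEAD motif GGAATG and the GCM1 motif ATGCGGGT.
Ctsj, chr13:61005926-61006175, minus strand: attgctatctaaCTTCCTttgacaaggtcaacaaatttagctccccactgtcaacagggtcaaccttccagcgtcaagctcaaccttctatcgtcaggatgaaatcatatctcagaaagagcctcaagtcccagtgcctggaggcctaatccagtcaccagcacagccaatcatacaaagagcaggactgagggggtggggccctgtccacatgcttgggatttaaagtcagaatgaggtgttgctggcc
Prl7d1, chr13:27716738-27716987, minus strand: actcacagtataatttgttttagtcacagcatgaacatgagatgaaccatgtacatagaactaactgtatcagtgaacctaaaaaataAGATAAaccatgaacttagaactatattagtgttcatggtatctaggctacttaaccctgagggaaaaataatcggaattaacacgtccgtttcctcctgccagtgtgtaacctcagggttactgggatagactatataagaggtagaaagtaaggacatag
Slco4a1, chr2:180460728-180460977, plus strand: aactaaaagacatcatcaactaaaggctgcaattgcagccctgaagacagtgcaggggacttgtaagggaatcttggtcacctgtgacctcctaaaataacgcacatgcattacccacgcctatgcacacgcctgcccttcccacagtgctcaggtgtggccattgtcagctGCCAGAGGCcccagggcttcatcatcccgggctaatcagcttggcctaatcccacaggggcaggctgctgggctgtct
Plac1, chrX:53240111-53240360, minus strand: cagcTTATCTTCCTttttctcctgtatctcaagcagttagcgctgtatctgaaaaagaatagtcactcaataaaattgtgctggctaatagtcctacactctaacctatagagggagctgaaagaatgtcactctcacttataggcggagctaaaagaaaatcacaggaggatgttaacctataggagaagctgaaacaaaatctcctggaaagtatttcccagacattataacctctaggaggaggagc
Ldoc1, chrX:61709361-61709610, plus strand: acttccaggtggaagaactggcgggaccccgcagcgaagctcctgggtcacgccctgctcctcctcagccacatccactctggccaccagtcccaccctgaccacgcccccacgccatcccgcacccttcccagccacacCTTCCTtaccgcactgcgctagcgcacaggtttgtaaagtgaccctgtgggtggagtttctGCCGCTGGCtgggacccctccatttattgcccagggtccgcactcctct

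Ctsj and Prl7d1, whose values ran in parallel over the arrays, shared none of the motifs here: Ctsj had 1 ETS match and Prl7d1 had 1 GATA match. Slco4a1 had 1 TFAP2 match, and Ldoc1 had 1 TFAP2 and 1 ETS match. In Plac1 a GATA and an ETS match overlap. For Slco4a1 and Plac1 the start shown is the one with matches, and the other listed start had 0. Of the called genes whose sequence is not shown, Rassf6 and 1600025M17Rik had 0 matches and Prl2a1 had 1 ETS match. Over all 32851 windows of this length in the table, 13.7% held the TFAP2, 9.99% the GATA, 29.5% the ETS, 12.6% the TEAD and 0.207% the GCM1 motif. Of 11 windows of the 8 genes, 2, 3, 4, 0 and 0 held them. Both Prl7d1 windows, which start 1 base apart, are among these. Such matches are a description of letters and not of binding.

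When the ES cells labelled Bmi1 were set against their controls, the median log2 difference over the 30 members was 0.03, against 0.00 over all genes (0.0011). Limma called 0 members, with or without the block, where 0.0462% and 1.66% of all tested genes were called. At an unadjusted p under 0.05 there were 3, Tfap2a, Cited1 and Nrk, against 6.29% of all tested genes, and with the block 4, against 13.5%. Both arrays labelled Bmi1 lay above both controls on 6 members and below them on 3, where 22.6% and 19.4% of all genes did so.

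Nrk was the member with the largest difference in ES cells. It read 6.93 and 7.21 on the arrays labelled Bmi1, 5.32 in the untreated cells and 5.55 in those with the vector. The arrays labelled Bmi1 were both higher, by a mean of 1.63 ± 0.58 log2 units (SE over 2 and 2 arrays; limma adjusted p = 0.619, and 0.0528 with the block). Fitted to the 4 ES cell arrays alone, it was the 1 member that limma called (adjusted p = 0.0287), among 139 of all tested genes, though its other 2 probe sets gave 0.60 and -0.03. Cited1 read 5.72 and 6.37 against 4.68 and 5.26, a log2 difference of 1.07 that was not called (limma adjusted p = 0.763, and 0.219 with the block). Tfap2a was at -0.48. Dusp9 read 11.10 and 10.58 against 10.14 and 10.10, a log2 difference of 0.73, with 0.62 and 0.84 from its other probe sets. Of the 5 members with the largest difference in embryoid bodies, 1600025M17Rik was at 0.01 in ES cells, Ldoc1 at 0.01, Tpbpa at 0.01, Slco4a1 at 0.04 and Rassf6 at 0.15, and the arrays of the groups overlapped in each.

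**Figure D4:**
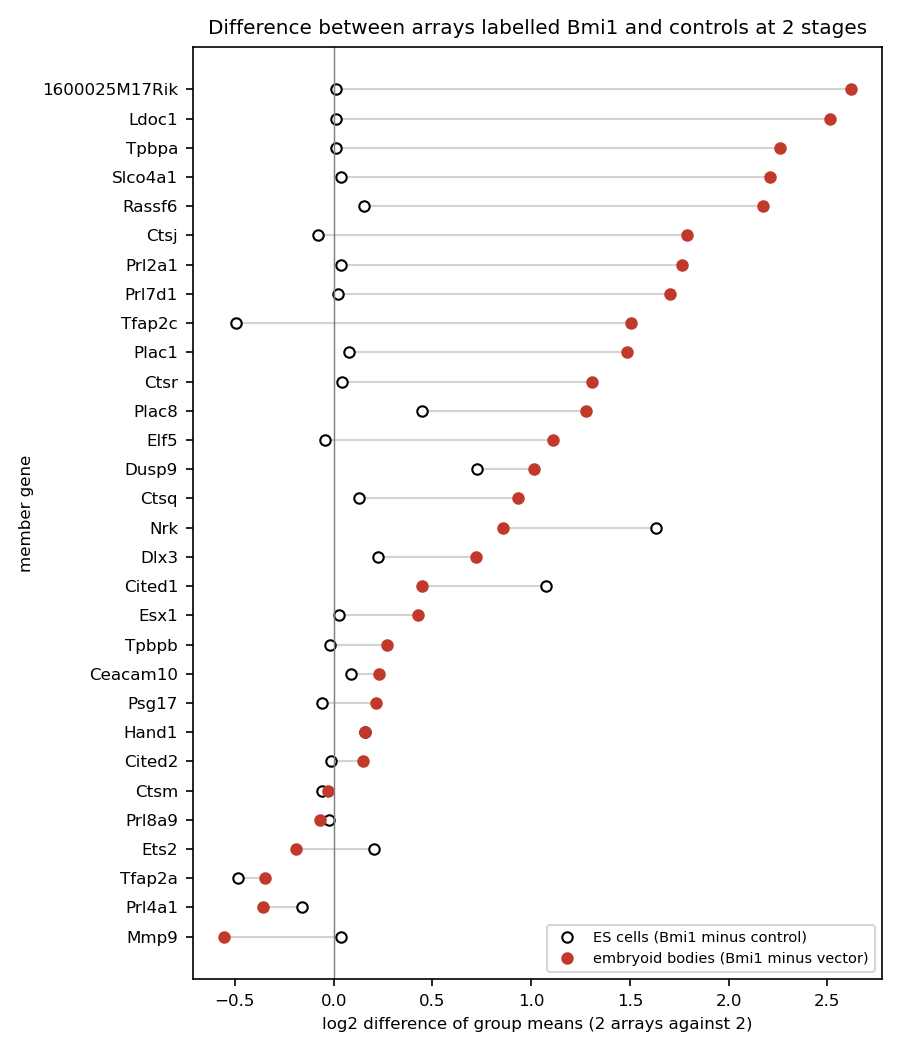
Log2 difference of labelled Bmi1 minus control for each of 30 members (rows, ordered by the embryoid body value) in ES cells (open points) and in embryoid bodies (filled points), each from the means of 2 arrays and 2 arrays. The 5 largest values in embryoid bodies lie between 2.17 and 2.62, and the same genes lie between 0.01 and 0.15 in ES cells. Nrk and Cited1 are among 6 members with the higher value in ES cells. The other 2 probe sets of Nrk, not drawn, go the other way, at 0.92 and 0.95 in embryoid bodies against -0.03 and 0.60 in ES cells.

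The difference between these 2 comparisons was tested directly. No member passed limma's test of it (8 had an unadjusted p under 0.05, against 6.83% of tested genes, and 0% of them were called). With the block it called Slco4a1 at 2.17 ± 0.20 (SE over 2 arrays in each of 4 groups; limma adjusted p = 0.0159), against 0.824% of tested genes. Without vector replicate 2 and without a block 3 members were called, among 100 of all tested genes. Rassf6, Plac1, Ldoc1 and 1600025M17Rik had differences of 2.02, 1.41, 2.50 and 2.60 with limma adjusted p of 0.0601, 0.0606, 0.0863 and 0.0862 with the block. For every member but Slco4a1 it is thus not shown that the embryoid body difference exceeds that in ES cells. For Slco4a1 it rests on the set block, since with all 8 arrays and no block limma's adjusted p was 0.129.

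From ES cells to embryoid bodies most members read higher, 22 of 30 in the vector samples and 25 of 30 in those labelled Bmi1. These comparisons share their arrays with the ones above. In vector embryoid bodies against control ES cells limma called 12 members higher and 2 lower (Cited2 and Dusp9), where 22.7% and 35.8% of tested genes were so called, 58.5% in all. With the block it called 19, against 74.8%. The median over the 30 members was 1.07, against -0.04 over all genes. Centring each array on its median moved the latter to -0.36 and the former to 0.75. Lineage regulators made up 6 of the 12: Tfap2a, Hand1, Esx1, Dlx3, Ets2 and Cited1. The dimmer probe set of Dlx3 went the other way, at -0.34, and at -0.16 between the stages labelled Bmi1. The other probe sets of Tfap2a, Hand1 and Ets2 also rose in both comparisons. The largest log2 differences were in Nrk (3.66 ± 0.58) and Plac1 (3.41 ± 0.26), followed by Prl7d1 (2.65 ± 1.33, called with the block but not without it), Cited1 (2.20 ± 0.44) and Mmp9 (2.18 ± 0.37), and Dusp9 fell by 1.92 ± 0.53 on the log2 scale (SE over 2 and 2 arrays each). Without vector replicate 1, Dusp9 was at -1.08, and Prl7d1 was at 4.67 and called (limma adjusted p = 0.00837). Without vector replicate 2, Prl7d1 was at 0.62. The calls of Dusp9 and 1600025M17Rik were lost without either control ES cell array (for Dusp9 limma adjusted p = 0.0724 without the untreated and 0.0687 without the vector array), and that of Ctsq without the untreated array. Quantile normalization ended the calls of Ctsq, Rassf6 and 1600025M17Rik (limma adjusted p = 0.0683, 0.0676 and 0.0819), and median centring that of Ctsq (0.0821). The call of Cited2 was lost without any 1 of the 4 ES cell arrays, without vector replicate 1 (-0.54), after quantile normalization (-0.17) and with the mean of its probe sets (-0.40). Ctsj was at 1.88 with vector replicates 1 and 2 at opposite ends, and without vector replicate 2 it was at -0.18, whereas without vector replicate 1 it was at 3.95 and called (limma adjusted p = 0.0151).

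In embryoid bodies labelled Bmi1 against ES cells labelled Bmi1, limma called 18 members higher and 1, Dusp9, lower, where 21.2% and 38% of tested genes were so called, 59.2% in all. With the block it called 21, against 74.4%. The median over the 30 members was 1.79, against -0.06 over all genes (1.45 and -0.41 after median centring). Plac1 was at 4.81 ± 0.26, Prl7d1 at 4.32 ± 1.33 and 1600025M17Rik at 4.15 ± 0.41. Ctsj followed at 3.75 ± 1.34, Rassf6 at 3.28 ± 0.26 and Prl2a1 at 3.03 ± 0.52 (SE over 2 and 2 arrays each). The calls of Ctsj and Prl7d1 were lost without either ES cell array labelled Bmi1 (limma adjusted p = 0.139 and 0.0951 without replicate 1) and without replicate 2 of the embryoid bodies labelled Bmi1, at 2.301 and 2.85. The Ctsj call was also lost without either control ES cell array, after quantile normalization and after median centring. Quantile normalization also ended the calls of Mmp9 and Dusp9 (limma adjusted p = 0.0546 and 0.16). That of Dusp9 was lost without any 1 ES cell array or without embryoid body replicate 1 labelled Bmi1. Those of Cited1 (without either embryoid body array labelled Bmi1, or ES cell replicate 1 labelled Bmi1) and of Mmp9 (without embryoid body replicate 1 labelled Bmi1) were lost as well. Ldoc1, at 2.42, and Slco4a1, at 1.75, were called here, while in the vector samples they were at -0.08 and -0.42. Cited2 was at -0.81, and after quantile normalization at 0.06. The filter on dim genes lets a member in through the stage where it is high, so the shares called here are no support for the list.

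Other trophoblast genes, from a list of 58 written for this comparison with earlier results known, gave a weaker tilt. Of these, 52 were measured, 37 read higher in embryoid bodies labelled Bmi1, and the median log2 difference was 0.24 (0.34 and 0.18 in the sets). Over all 18193 genes, 8239 read higher and the median was -0.02. Limma called 2 higher and 0 lower, and with the block 6 higher and 0 lower. Of all tested genes, 0.131% and 1.35% were called higher. All 6 read higher on both embryoid body arrays labelled Bmi1 than on either vector array, as did 9.36% of all genes. Pparg, a nuclear receptor needed for the labyrinth, read 8.37 and 8.28 against 5.67 and 6.40. That is a log2 difference of 2.29 ± 0.25 (SE over 2 and 2 arrays; limma adjusted p = 0.0433). Sct, the hormone secretin, read 9.13 and 9.03 against 7.22 and 7.62, at 1.67 ± 0.20 (SE over 2 and 2 arrays; limma adjusted p = 0.047). Called with the block were also Gjb2, a connexin of the labyrinth (2.83), Prl6a1 (2.05), Gata2, a factor of giant cells and of blood (1.43), and Peg10, an imprinted gene needed for placenta (1.26). Prl6a1 passed the filter on dim genes only through the 2 embryoid body arrays labelled Bmi1, and Pparg only through these and vector replicate 2. Their calls are thus no support for the list. The stem cell factors Cdx2 and Eomes were at -0.63 and -1.16, and neither was called. Of the 52 genes 41 were bright enough to be tested.

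Markers of other cell types in which some of these genes are also active were compared in the same embryoid bodies. Of 9 measured surface ectoderm and keratinocyte markers 8 read higher in embryoid bodies labelled Bmi1 with a median of 0.33, where 8239 of all 18193 genes did. Of these markers 0 were called, and Krt14, Krt15 and Trp63 were too dim to be tested. Neural crest markers had a median of -0.06 over 5 genes, heart and lateral mesoderm markers of -0.15 over 8 and visceral and parietal endoderm markers of -0.32 over 12. Of these 3 lists 4, 8 and 9 genes were tested. Limma called 0 genes of these 3 lists, and with the block 1 heart gene (Gata4, -1.04) and 1 endoderm gene (Sox17, -0.83), both lower and both named after their values were seen. Of all tested genes it called 0.139%, and 2.09% with the block. Their part in the values of Dlx3, Tfap2a, Hand1 and Elf5 was not tested.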

How the data were processed

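The deposited values are log2 expression values that the authors made with RMA (robust multi-array average), per the submitters' processing notes; versions, the array annotation and the scaling settings are not given in the sources used here. Of 45037 probe sets, 64 controls were left out, 34945 carried 1 gene symbol in the platform table, 932 several and 9160 none. Each gene was read from its brightest single-symbol probe set, and tested if above the array median on at least 2 of 8 arrays. Limma 3.58.1 in R 4.3.3 fitted 4 group means to 12982 genes, with Benjamini-Hochberg adjustment over all of them and a threshold of 0.05; 5211 dim genes were left out. The script was tested on simulated data.

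The members, the further lists and the comparisons were chosen with earlier results of these data known. All members are named. Full statistics go to members called by either fit, and in the stage comparisons to the 6 largest differences. Of the further trophoblast list, those called in embryoid bodies are named.

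Same-numbered embryoid body arrays deviated together from their group means (correlation 0.72 over genes), but not with the same-numbered ES cells (0.03 and 0.04), so numbers pair arrays within embryoid bodies only, as a hint from the data and not from the labels. Alternatives covered the filter, probe set choice, scaling, prior, block, stage and each array left out.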

Additional observations from a re-analysis of the deposited data

Results flagged for a closer look

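Slco4a1 is listed because its difference between arrays labelled Bmi1 and controls was itself different in the 2 stages. It was 2.21 in embryoid bodies and 0.04 in ES cells on the log2 scale, and the gap of 2.17 passed limma's test once the set of embryoid body arrays was fitted as a block (adjusted p = 0.016). Without the block it did not (limma adjusted p = 0.129), nor with the replicate number as a block over the 6 numbered arrays (limma adjusted p = 0.0727). Both embryoid body arrays labelled Bmi1 lay above all 6 others. Groups of 2 arrays are too small for a check on single outlying arrays.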

How the results depend on the processing

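Of the 50 member differences called by either fit, 46 kept their direction under every alternative run. The exceptions were Ctsj and Prl7d1 between embryoid body groups, at -0.28 and -0.32 without vector replicate 1 (3.86 and 3.72 without vector replicate 2), Ctsj from control ES cells to vector embryoid bodies, at -0.18 without vector replicate 2 (3.95 without replicate 1), and Cited2 between the stages labelled Bmi1, at 0.0627 after quantile normalization. Over all 150 member differences, called or not, another scaling or the mean of probe sets turned 10, namely Ets2 and Cited2 between embryoid body groups (0.06 and -0.03 with the mean), Elf5, Tpbpa and Ceacam10 in ES cells, Tfap2a, Hand1, Cited2 and Nrk (0.17 with the mean) for the difference between stages, and the Cited2 value above. Members called between embryoid body groups, 2 as reported, were 1 with a filter at the 75th percentile, 1 after quantile normalization, 1 after median centring, 1 with an intensity trend and robust prior, 9 with the replicate block (embryoid body set), 2 with the number as a block over 6 arrays, 0 with embryoid body arrays alone and 0 to 4 with 1 array left out. In ES cells 0 became 1 with ES cell arrays alone. For the difference between stages 0 became 1 with the replicate block, and 0 to 3 with 1 array left out. From ES cells to embryoid bodies, the filter at the 75th percentile took all but 5 of the 14 called members in vector samples and all but 7 of the 19 in those labelled Bmi1 out of the test, and those still tested stayed called. The median over members ranged, with 1 array left out, from 0.45 to 1.09 in embryoid bodies, 0.0288 to 0.0675 in ES cells, 0.32 to 0.65 for their difference, 0.77 to 1.35 for the vector stages and 1.65 to 1.87 for those labelled Bmi1. The median of the stage difference was 0.60 after quantile normalization. The vector stage median was 0.83 with the mean of probe sets, 0.83 after quantile normalization and 0.75 after centring, and the labelled Bmi1 stage median 1.59 with the mean of probe sets and 1.45 after centring. Causes were not tested. Groups of 2 arrays limit all calls, and a dim probe set near background understates a difference.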

Other observations

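The measured members include 7 genes of the X chromosome (Esx1, Cited1, Nrk, Ldoc1, Plac1, Dusp9 and 1600025M17Rik). All 7 read higher in embryoid bodies labelled Bmi1 than in vector embryoid bodies, with a median log2 difference of 1.01, at 1.49 in replicate 1 and 1.14 in replicate 2. Of the 23 members on other chromosomes 17 read higher, with a median of 0.72. Among all 617 X-linked genes 45.7% read higher, with a median of -0.03, and among 17415 genes on other chromosomes 45.2%. In ES cells the median of the 7 was 0.08. The grouping by chromosome was made after the values were seen and was not tested.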
